A study of Mus musculus with 12 samples.

Results

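The comparison described here sets mouse bone marrow cells carrying wild-type IDH1 (IDH1wt) against cells carrying the empty vector, across 15858 genes. It rests on 6 of the 12 Affymetrix arrays of the study, the 3 whose titles name IDH1_wt and the 3 whose titles name the CTL empty vector. The other 6 arrays, 3 of a mutant IDH1 group (IDH1mut) and 3 of a group given R-2-hydroxyglutarate (R-2HG), enter the fit as an estimate of spread and stand beside the comparison where they show what it holds. All 12 samples came from bone marrow cells of C57BL6 mice that HoxA9 had immortalised, a homeobox protein whose overexpression blocks the maturation of myeloid progenitors. The IDH1wt cells had received the retroviral construct pSF91-IDH1wt-IRES-EGFP, the IDH1mut cells pSF91-IDH1mut-IRES-GFP, and the controls a vector described as an EGFP control, so that all groups carry HoxA9 and a GFP marker. R-2HG was given at 1 mg/day for 4 weeks to recipients of vector cells (1 label field of that group names the mutant construct instead, and was not followed). Cells were transplanted into irradiated syngeneic mice, and 4 weeks later GFP-positive cells were sorted from the marrow for total RNA. No age or sex of the mice, and no mutation of IDH1mut, was taken from the labels. The construct is carried by a retroviral vector in cells that have their own Idh1 gene, its expression was not measured here, and the GFP sort selects transduced cells from the host's own marrow.

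IDH1 is the cytosolic and peroxisomal enzyme that converts isocitrate to 2-oxoglutarate and yields NADPH, the reducing power of glutathione and lipid synthesis. 2-Oxoglutarate is the co-substrate of a family of dioxygenases that includes the TET enzymes and many histone demethylases. Mutant IDH1 instead turns 2-oxoglutarate into R-2HG, so the wild-type enzyme is the usual control for the protein itself, as distinct from its mutant activity. The immediate early genes and the heat shock genes, which hold 11 of the 214 called genes below, are switched on within minutes by growth factor signals or by protein damage, through transcription factors already present in the cell.

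Values are RMA log2 intensities that were centred on each probe set before deposit. A value of 0 is the probe set's own centre, whose reference arrays are not given, and not absence of the transcript. No gene's level can be set against another's. For the same reason the labelled cell type could not be checked against the level of its markers. The labels do not state that each replicate was a mouse of its own, so the tests reflect the spread among these samples alone, which may be technical. Over all genes, the SD of the difference between a pair of arrays was 0.231 to 0.289 within IDH1wt and 0.187 to 0.236 within empty vector, against 0.294 to 0.333 for an IDH1wt array against an empty vector array. A gene was called where limma's moderated test, fitted over all 12 arrays, gave a Benjamini-Hochberg adjusted p under 0.05 over all genes. A difference is always IDH1wt minus the other group, on the log2 scale, with the SE of that fit and n = 3 arrays per group. Array values are listed in the order of replicates 1, 2 and 3.

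The endogenous Idh1 gene was not higher in the IDH1wt arrays. It measured 0.01, -0.19 and -0.05 in IDH1wt, against 0.00, 0.17 and 0.07 in empty vector, and the difference was -0.16 ± 0.11 (SE, limma adjusted p = 0.52, 95% interval -0.41 to 0.09). Its 2 probe sets gave -0.23 and -0.09. Whether these probe sets detect the introduced sequence is not given in the sources used here, so the value checks neither the label nor the expression of the construct.

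Of the 15858 genes, 214 were called (1.35%), 125 higher in IDH1wt (0.788%) and 89 lower (0.561%). In all 214 the 3 IDH1wt arrays lay wholly above or wholly below the 3 empty vector arrays, which held for 23.8% of all genes (10.2% above and 13.6% below). The changes ran to a 33.5-fold decrease (Hspa1b) and a 12.1-fold increase (Bex1), with a median size of 0.64 on the log2 scale. At least 2-fold changes were few, 22 higher and 23 lower, whereas 53 of the higher and 42 of the lower genes changed by less than 1.5-fold. Without adjustment, 16.2% of all genes had p under 0.05. The median difference over all genes was -0.04 and the median SE was 0.10. The count leans on single arrays: without IDH1wt replicate 2 or 3 it fell to 123 or 86, and without empty vector replicate 2 or 3 to 89 or 84.

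**Figure D1:**
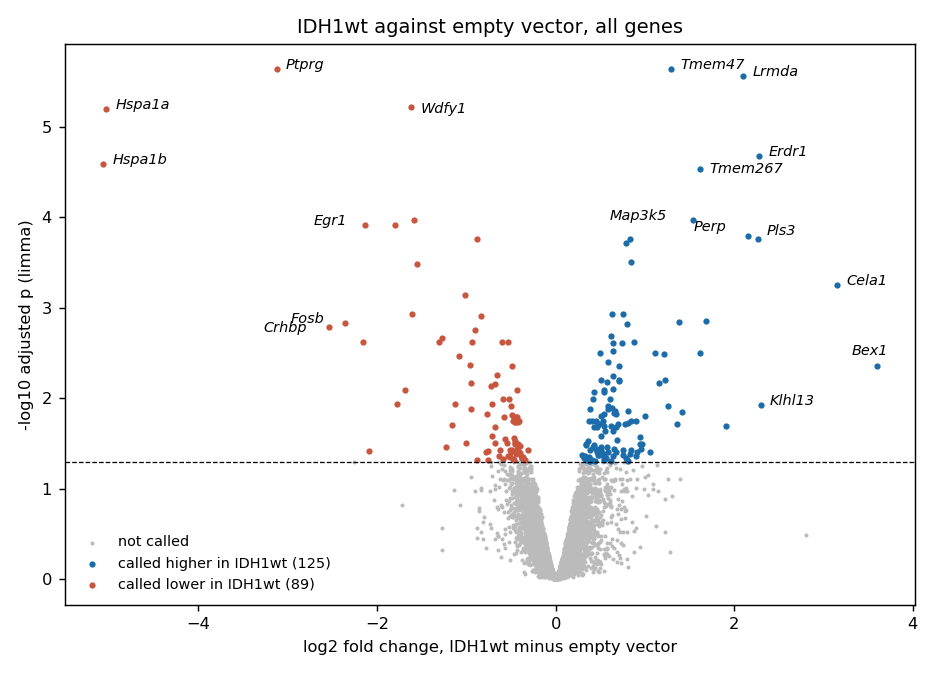
The log2 fold change of each of 15858 genes in IDH1wt relative to empty vector (x axis) is plotted against -log10 of limma's adjusted p (y axis), with a dashed line at the threshold of 0.05. Hspa1a and Hspa1b stand alone on the left, and the 125 higher genes reach from Sorl1 at 0.30 to Bex1 at 3.59.

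The promoters of 6 called genes of the heat shock and immediate early lists are given first. They are shown because Hspa1a and Hspa1b had the largest changes of the comparison and the other 4 belong to a list with several decreases, of smaller size (Zfp36 is not among the 20 largest). Each run is the 150 bases before the transcription start, from RefSeq's annotation of GRCm38.p6, read 5′ to 3′ on the gene's own strand. Capitals mark motifs found by searching both strands: GAANNTTC, a core of the heat shock element, CCAAT, which appears as ATTGG where it lies on the other strand, the TATA box TATAAA, the cAMP response element core TGACG, and the CArG box of serum response factor.
The Hspa1a run is chr17:34972157-34972306 (minus strand), Hspa1b chr17:34959239-34959388 (minus), Fos chr12:85473740-85473889 (plus), Fosb chr7:19310046-19310195 (minus), Jun chr4:95052223-95052372 (minus) and Zfp36 chr7:28379229-28379378 (minus).
Hspa1a: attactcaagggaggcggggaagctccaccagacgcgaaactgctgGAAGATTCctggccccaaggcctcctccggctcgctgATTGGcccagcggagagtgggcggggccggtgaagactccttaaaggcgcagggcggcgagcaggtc
Hspa1b: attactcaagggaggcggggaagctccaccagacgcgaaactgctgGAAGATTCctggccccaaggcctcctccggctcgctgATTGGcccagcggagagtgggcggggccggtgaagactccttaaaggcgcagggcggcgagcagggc
Fos: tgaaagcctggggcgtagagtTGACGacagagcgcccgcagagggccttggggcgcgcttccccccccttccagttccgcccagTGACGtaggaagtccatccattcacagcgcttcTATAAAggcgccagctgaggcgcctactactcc
Fosb: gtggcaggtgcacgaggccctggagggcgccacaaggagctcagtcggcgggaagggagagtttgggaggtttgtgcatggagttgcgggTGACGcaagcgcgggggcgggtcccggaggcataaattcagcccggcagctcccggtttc
Jun: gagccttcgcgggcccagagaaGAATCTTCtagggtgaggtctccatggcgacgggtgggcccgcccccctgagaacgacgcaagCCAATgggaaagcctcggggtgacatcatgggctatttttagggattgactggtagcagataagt
Zfp36: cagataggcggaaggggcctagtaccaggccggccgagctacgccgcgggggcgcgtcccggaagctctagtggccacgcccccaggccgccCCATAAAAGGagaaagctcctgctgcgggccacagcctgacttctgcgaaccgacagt

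The motif search covered the table's whole window of 250 bases before to 50 bases after the start, in which Hspa1a and Hspa1b share 296 of 300 bases. GAANNTTC lies 104 bases before the start in both Hspa1a and Hspa1b and 128 bases before it in Jun, and occurs in 7.86% of the 32851 windows of the table. The inverse arrangement TTCNNGAA, found in 8.52% of windows, is in none of these genes. CCAAT (37.4% of windows) lies 67 bases before the start in both heat shock genes and 65 before it in Jun. TGACG (20.8%) lies 129 and 66 bases before the start of Fos and 60 before that of Fosb, TATAAA (13.6%) 33 before that of Fos, and a CArG box (1.63%) 58 before that of Zfp36. These matches describe the letters in the windows and say nothing of which factor was bound. Of the 11 called genes of the heat shock and immediate early lists, 9 had a window in the table.

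The largest decreases were in Hspa1b and Hspa1a, the neighbouring genes on chromosome 17 that encode the inducible HSP70 chaperone. Hspa1b measured -3.17, -1.97 and -2.60 in IDH1wt, against 2.45, 2.61 and 2.40 in empty vector. The IDH1wt arrays lay below and the empty vector arrays above all other arrays, since Hspa1b measured -0.75, -1.52 and -0.69 in IDH1mut and 0.00, -0.06 and 1.33 in R-2HG. The difference was -5.07 ± 0.37 against empty vector (limma adjusted p = 2.6e-05), -1.59 against IDH1mut (adjusted p = 0.013) and -3.0 against R-2HG (adjusted p = 0.00020), so that IDH1wt was lower than each of the 3 other groups. Over all genes, IDH1wt minus IDH1mut was called in 15.7% and IDH1wt minus R-2HG in 44.4%. Its 3 probe sets gave -5.42, -4.96 and -4.82.

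Hspa1a measured -1.43, -0.77 and -1.33 in IDH1wt, against 3.90, 3.91 and 3.77 in empty vector. The 3 empty vector arrays stood above all 9 others, which lay between -1.43 and 1.70. The difference was -5.03 ± 0.32 (32.8-fold lower, limma adjusted p = 6.4e-06), and against IDH1mut it was -0.77 (adjusted p = 0.13). The 2 transcripts are near-identical, so their probe sets may read both, and the pair is better taken as 1 measurement than as separate genes. No other member of the heat shock list was called. Of its 26 measured genes 2 were called lower (7.69%, against 0.561% of all genes) and 0 higher, and the list's median difference was -0.02. That share counts the pair as 2 genes, although it may be 1 measurement. Hspa8, the constitutive HSP70, gave -0.38 (adjusted p = 0.19), the co-chaperone Dnajb1 -0.05, Hsp90aa1 -0.05, the small heat shock protein Hspb1 -0.06, Hsph1 -0.07 and Bag3 -0.01, all with adjusted p of 0.77 or more except Hspa8.

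Immediate early genes formed the other group among the decreases. Of 35 measured members 9 were called lower (25.7%, against 0.561% of all genes) and 0 higher, while the median difference of the list was -0.03, and most members were not called. The 9 were the AP-1 subunits Fosb, Fos and Jun, the zinc finger factor Egr1, the small GTPase Rhob, the mRNA-decay factor Zfp36 and Ier2, Ier3 and Ier5. The list had been chosen with earlier results of these data known, so its count is a description.

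Fosb measured -1.02, -0.43 and -1.13 in IDH1wt, against 1.00, 1.72 and 1.79 in empty vector, a difference of -2.36 ± 0.28 (limma adjusted p = 0.0015). Egr1 measured -1.42, -0.78 and -1.17 in IDH1wt and 0.83, 1.07 and 1.15 in empty vector, a difference of -2.14 ± 0.19 (adjusted p = 0.00012). In both genes the IDH1mut arrays lay at the level of IDH1wt (Fosb -0.54, -0.55 and -0.41, Egr1 -0.84, -1.50 and -1.20), and IDH1wt minus IDH1mut was -0.36 (adjusted p = 0.44) and 0.06 (adjusted p = 0.88). The R-2HG arrays lay between, at 0.00, -0.10 and 0.99 for Fosb and -0.05, 0.00 and 0.34 for Egr1.

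Fos measured -0.79, -0.35 and -0.69 in IDH1wt, against 0.91, 1.09 and 1.20 in empty vector, and every other array of the study lay above the IDH1wt arrays. Its difference was -1.68 ± 0.26 (limma adjusted p = 0.0081), and that against IDH1mut, whose replicates spread from -0.29 to 1.02, was -0.82 (adjusted p = 0.054). Zfp36, which encodes tristetraprolin, behaved alike with less spread: -0.74, -0.55 and -0.62 in IDH1wt, against 0.09, 0.03 and 0.00 in empty vector. Its difference was -0.68 ± 0.10 (adjusted p = 0.0070) against empty vector, -0.61 (adjusted p = 0.0024) against IDH1mut and -0.76 (adjusted p = 0.00031) against R-2HG. Jun went the other way between the constructs. It measured 0.09, -0.17 and -0.03 in IDH1wt, -0.50, -0.85 and -0.78 in IDH1mut and 1.10, 1.35 and 1.35 in empty vector, so that IDH1wt was 1.31 below empty vector (adjusted p = 0.0024) and 0.67 above IDH1mut (adjusted p = 0.019).

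The smaller decreases were Rhob at -0.88 ± 0.08 (limma adjusted p = 0.00017), Ier3 at -0.76 ± 0.16 (adjusted p = 0.038), Ier5 at -0.53 ± 0.07 (adjusted p = 0.0024) and Ier2 at -0.53 ± 0.08 (adjusted p = 0.010). For Rhob and Ier5 the IDH1wt arrays were below, and the empty vector arrays above, all 9 others, and both were lower than in IDH1mut (-0.34 each, adjusted p = 0.016 and 0.0062). Of the 3 probe sets of Ier5, 1 gave -0.06 (adjusted p = 0.83) and was not called alone. The call of Ier3 was lost whichever of the 6 arrays was left out (adjusted p up to 0.12), and that of Ier2 without IDH1wt replicate 3 or empty vector replicate 3 (adjusted p up to 0.060). Junb, at -0.57, missed the threshold (adjusted p = 0.063).

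Members of the same list that were not called ran to both sides of 0: Egr2 gave 0.36, the nuclear receptor Nr4a1 0.35, Egr3 0.27, Atf3 0.19, Klf6 -0.02, the growth arrest gene Btg2 -0.18 and Arc -0.24, all with adjusted p of 0.18 or more. The lists of genes that feed back on the ERK and NF-kB pathways gave 0 calls, in 13 and 25 measured genes, where 1.35% of all genes were called. Of the ERK feedback genes 1 had an unadjusted p under 0.05 (7.69%, against 16.2% of all genes), namely Dusp6, the ERK phosphatase, at 0.38 (limma adjusted p = 0.079). The ERK pathway inhibitor Spred1 gave 0.16 (adjusted p = 0.34) and Dusp1 -0.36 (adjusted p = 0.66). Of the NF-kB target and feedback genes 8 had an unadjusted p under 0.05 (32%, against 16.2% of all genes). Nfkbiz gave -0.31 (adjusted p = 0.078), with 1 of its 3 probe sets called alone at -0.85 (adjusted p = 0.00058), and Tnf gave -0.28 (adjusted p = 0.099), with the IDH1wt arrays of both below all 9 others, whereas Il1b gave 0.43 (adjusted p = 0.35) and Nfkbia 0.09 (adjusted p = 0.69).

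**Figure D2:**
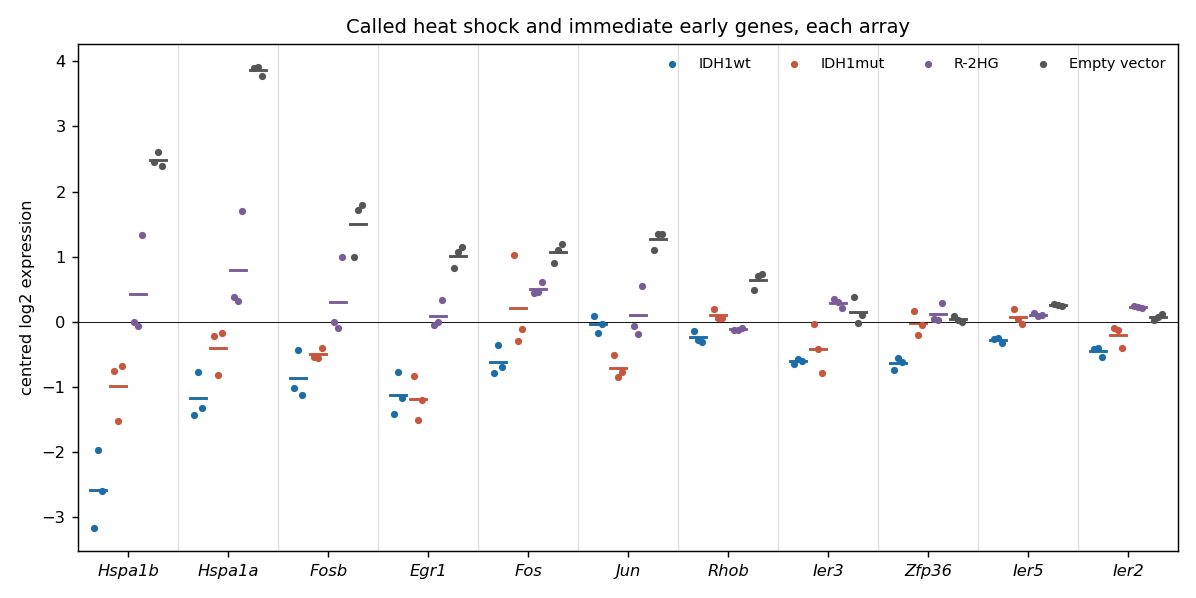
Centred log2 expression (y axis) of the 11 called heat shock and immediate early genes is shown for each array (points) of the 4 groups, with a bar at each group mean of 3 arrays. Empty vector is the highest group in Hspa1b, Hspa1a, Fosb, Egr1, Fos, Jun, Rhob and Ier5, and IDH1wt is the lowest in Hspa1b, Hspa1a, Fosb, Fos, Rhob, Ier3, Zfp36, Ier5 and Ier2.

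Setting each called gene in all 12 arrays separated the genes in which IDH1wt stood apart from those in which the empty vector did. Among the 214, the IDH1wt arrays lay outside all 9 other arrays in 62 genes (40 above and 22 below), and the empty vector arrays lay outside all 9 others in 119 (53 above and 66 below). Both held in 8 genes and neither in 41. Over all genes the shares were 4.34% and 7.88%, but the call itself already sets these 2 groups apart, so the counts are a description. In 53 called genes (30 above and 23 below) the 6 arrays of both constructs lay apart from the 6 arrays of vector cells with and without R-2HG, as in 2.84% of all genes.

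Several of the increases set IDH1wt apart from every other group. Tmem47, an X-linked gene for a small junctional membrane protein, measured 1.19, 1.05 and 1.19 in IDH1wt, against 0.06 to 0.17 in IDH1mut, -0.09 to 0.06 in R-2HG and -0.16 to -0.14 in empty vector. Its difference was 1.29 ± 0.07 against empty vector (limma adjusted p = 2.3e-06), 1.04 against IDH1mut (adjusted p = 1.2e-05) and 1.15 against R-2HG (adjusted p = 3.5e-06). Perp, a p53 target that encodes a tetraspan membrane protein, measured 1.62, 2.12 and 1.92 in IDH1wt, against -0.23, -0.26 and -0.32 in empty vector, and no other array exceeded 0.16. Its difference was 2.15 ± 0.20 (4.45-fold, adjusted p = 0.00016), and 1.93 against IDH1mut (adjusted p = 0.00017).

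Pls3, which encodes the actin bundler plastin 3, measured 2.79, 1.85 and 2.22 in IDH1wt, against -0.09, 0.00 and 0.17 in empty vector. The difference was 2.26 ± 0.21 (limma adjusted p = 0.00017), and 1.84 against IDH1mut (adjusted p = 0.00028), whose arrays reached 0.25 to 0.78. Gspt2, a translation termination factor of the eRF3 type, measured 1.89, 1.07 and 1.62 in IDH1wt, against -0.10, -0.28 and -0.07 in empty vector. It gave 1.68 ± 0.20 against empty vector (adjusted p = 0.0014) and 1.6 against IDH1mut (adjusted p = 0.00043). In both genes no array of another group reached the lowest IDH1wt array.

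The same pattern held for Il17re, the receptor chain for interleukin 17C, Ugt8a, the ceramide galactosyltransferase, and the scavenger receptor Colec12. Il17re gave 1.62 ± 0.22 (limma adjusted p = 0.0032) and 1.58 against IDH1mut (adjusted p = 0.00083), Ugt8a 1.22 ± 0.17 (adjusted p = 0.0032) and 1.13 against IDH1mut (adjusted p = 0.0011), and Colec12 1.36 ± 0.25 (adjusted p = 0.020) and 1.41 against IDH1mut (adjusted p = 0.0030). The call of Colec12 was lost without IDH1wt replicate 3 or empty vector replicate 2 or 3 (adjusted p up to 0.095), and 1 of the 3 probe sets of Il17re and 1 of the 2 of Ugt8a were not called alone. Replicate 2 was the lowest of the IDH1wt arrays in Pls3, Gspt2, Il17re, Ugt8a and Colec12, and the highest in Perp.

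Stepwise patterns, with IDH1mut between IDH1wt and empty vector, were found in Cela1, Map3k5 and Rab11fip5. Cela1, an elastase of the pancreatic type, measured 3.51, 2.04 and 3.04 in IDH1wt, 1.56, 1.83 and 1.30 in IDH1mut, and -0.27, -0.33 and -0.26 in empty vector. IDH1wt was 3.15 ± 0.34 above empty vector (limma adjusted p = 0.00057) and 1.30 above IDH1mut (adjusted p = 0.022). Map3k5, the stress kinase ASK1 of the JNK and p38 pathways, gave 1.54 ± 0.13 (adjusted p = 0.00011) and 0.63 against IDH1mut (adjusted p = 0.0074), with the IDH1wt arrays above and the empty vector arrays below all 9 others. Rab11fip5, an effector of recycling endosomes, gave 1.39 ± 0.17 (adjusted p = 0.0015) and 0.78 (adjusted p = 0.0082). The step was not confined to the constructs in Map3k5 and Rab11fip5. In Map3k5 the R-2HG arrays also lay between, at -0.28, -0.36 and -0.33, and R-2HG minus empty vector was 0.53 (adjusted p = 0.0074). In Rab11fip5 the R-2HG arrays, at 0.10, 0.08 and -0.39, overlapped IDH1mut. For Cela1, R-2HG minus empty vector was -0.67 (adjusted p = 0.13).

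Other increases were shared by both constructs. Bex1, a brain-expressed X-linked gene and the largest increase, measured 4.10, 2.51 and 3.69 in IDH1wt, 2.00, 4.45 and 3.32 in IDH1mut, and 0.11, 0.00 and -0.59 in empty vector. IDH1wt exceeded empty vector by 3.59 ± 0.51 (12.1-fold, limma adjusted p = 0.0044) and differed from IDH1mut by 0.18 (adjusted p = 0.86). Lrmda measured 0.60, 0.31 and 0.48 in IDH1wt, 0.35, 0.41 and -0.07 in IDH1mut, -1.74, -1.86 and -1.71 in R-2HG, and -1.59, -1.67 and -1.65 in empty vector. Its arrays fell into the construct arrays and the vector arrays with a gap of more than 1 log2 unit between them, and its difference was 2.10 ± 0.12 (adjusted p = 2.8e-06). That value is a mean of 3 probe sets that gave 3.82, 2.04 and 0.43, the last of which was not called alone (adjusted p = 0.062).

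Erdr1, erythroid differentiation regulator 1, showed the same split, at 0.41, 0.56 and 0.48 in IDH1wt, -0.20, 0.27 and 0.23 in IDH1mut, and -1.44, -1.94 and -2.0 in empty vector (2.28 ± 0.16, limma adjusted p = 2.1e-05). Tmem267 gave 1.61 ± 0.12 (adjusted p = 2.9e-05), the cyclophilin Ppic 1.41 ± 0.24 (adjusted p = 0.014), Arhgap5 1.16 ± 0.18 (adjusted p = 0.0068) and the ribonuclease Ear3 1.26 ± 0.21 (adjusted p = 0.012). None of these 4 differed from IDH1mut beyond the threshold (adjusted p of 0.073 or more). The call of Ppic was lost without IDH1wt replicate 3 or empty vector replicate 2 or 3 (adjusted p up to 0.069). That of Ear3 was lost without IDH1wt replicate 3 or empty vector replicate 3 (adjusted p up to 0.067). Pgap1, an enzyme that remodels the GPI anchor, gave 1.23 ± 0.18 (adjusted p = 0.0062) and 0.45 against IDH1mut (adjusted p = 0.12), with the empty vector arrays below all 9 others and R-2HG overlapping IDH1wt.

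In Klhl13 and Tceal8 the IDH1mut arrays were split, with 1 replicate at 0.00 and the other two at 0.83 or above. Klhl13, an adaptor of a cullin ubiquitin ligase, gave 2.29 ± 0.38 (limma adjusted p = 0.012), with the IDH1wt arrays above all 9 others. It gave 1.19 against IDH1mut (adjusted p = 0.053), and IDH1mut minus empty vector was 1.10 (adjusted p = 0.055). Tceal8 gave 1.91 ± 0.35 (adjusted p = 0.020) and was 1.17 above IDH1mut (adjusted p = 0.042), while IDH1mut minus empty vector was 0.74 (adjusted p = 0.15). Klhl13 lost its call without IDH1wt replicate 3 or empty vector replicate 2 or 3 (adjusted p up to 0.061). Tceal8 lost its call without 5 of the 6 arrays (adjusted p up to 0.088). Bex1, Erdr1, Klhl13 and Lrmda also lost theirs where the prior variance followed the mean.

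Of the 20 largest increases 7, namely Bex1, Klhl13, Erdr1, Pls3, Tceal8, Gspt2 and Tmem47, lie on the X chromosome. Over all 485 X-linked genes measured, 11 were called higher and 0 lower (2.27%), against 1.32% of the other genes called in either direction and 0.736% of them called higher. The median difference of X-linked genes was -0.01, close to that of all genes. The X-inactivation transcript Xist gave -0.17 (limma adjusted p = 0.53), and the Y-linked Kdm5d and Uty -0.15 (adjusted p = 0.61) and -0.22 (adjusted p = 0.40). These 3 genes, and the count itself, were chosen after the values were seen. Bex1 and Tceal8 are neighbours among measured genes, as are other called pairs, among them Hspa1b and Hspa1a, and Sfxn5 and Rab11fip5. Such neighbours did not all change alike, since Slc15a2 was called higher and its neighbour Eaf2 lower.

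Ptprg, a receptor tyrosine phosphatase, was among the genes in which the empty vector arrays alone stood apart. It measured -0.14, -0.10 and -0.13 in IDH1wt, against 2.52, 3.33 and 3.14 in empty vector, and all arrays of IDH1mut and R-2HG lay between -0.21 and 0.06. The difference was -3.12 ± 0.16 (8.71-fold lower, limma adjusted p = 2.3e-06). Against IDH1mut it was -0.04 (adjusted p = 0.90) and against R-2HG -0.13 (adjusted p = 0.52).

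Eya1, a transcriptional coactivator with phosphatase activity, measured -0.34, -0.31 and -0.29 in IDH1wt, against 1.30, 1.52 and 1.63 in empty vector (-1.79 ± 0.16, limma adjusted p = 0.00012). Gstt2, a glutathione transferase, measured -0.18, -0.15 and -0.18 in IDH1wt, against 1.10, 1.53 and 1.61 in empty vector (-1.58 ± 0.14, adjusted p = 0.00011). Crhbp, the binding protein of corticotropin-releasing hormone, measured -0.44, 0.00 and -0.23 in IDH1wt, against 1.90, 2.63 and 2.42 in empty vector (-2.54 ± 0.31, adjusted p = 0.0016). In each of these genes the arrays of both other groups were also below the empty vector arrays, so that IDH1wt shared its position with cells that carried no added wild-type enzyme. For Crhbp IDH1mut lay between, 1.03 above IDH1wt (adjusted p = 0.042).

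Dyrk3, a dual-specificity kinase, gave -1.77 ± 0.29 (limma adjusted p = 0.012), Tctex1d1 -1.61 ± 0.19 (adjusted p = 0.0012), Efcab7 -1.28 ± 0.16 (adjusted p = 0.0022), Zfp979 -1.12 ± 0.19 (adjusted p = 0.012) and Clca1 -2.10 ± 0.43 (adjusted p = 0.038), again with the empty vector arrays above all 9 others. The empty vector did not stand apart alone in Efcab7, Tctex1d1 and Zfp979. For Efcab7 the IDH1wt arrays lay below all R-2HG arrays, and IDH1wt minus R-2HG was -0.54 (adjusted p = 0.018). For Tctex1d1 the R-2HG arrays lay lowest, at -2.69, -2.61 and -2.79, and IDH1wt minus R-2HG was 2.55 (adjusted p = 1.8e-05). For Zfp979 the IDH1wt arrays also lay below all 9 others, though IDH1wt minus IDH1mut was -0.13 (adjusted p = 0.70). Empty vector replicate 1 was the lowest of its group in each of Ptprg, Eya1, Gstt2, Crhbp, Dyrk3, Tctex1d1, Efcab7, Zfp979 and Clca1. The Clca1 call was lost without 5 of the 6 arrays (adjusted p up to 0.17), and those of Dyrk3 and Zfp979 without empty vector replicate 2 or 3, among others (adjusted p up to 0.061 and 0.063).

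Decreases in which IDH1wt stood apart from all groups were fewer. Wdfy1, an endosomal adaptor of Toll-like receptor signalling, measured -0.77, -0.83 and -0.84 in IDH1wt, -0.12, -0.15 and 0.18 in IDH1mut, 1.04, 0.91 and 0.80 in R-2HG, and 0.71, 0.91 and 0.79 in empty vector. The difference was -1.61 ± 0.10 against empty vector (limma adjusted p = 6.1e-06), -0.78 against IDH1mut (adjusted p = 0.00045) and -1.73 against R-2HG (adjusted p = 2.8e-06). The arrays fell into 3 tiers that did not overlap, with IDH1wt lowest, IDH1mut next and the vector cells highest. Aoc1, the histamine-degrading diamine oxidase, measured -1.09, -0.91 and -1.02 in IDH1wt, against 0.64, 0.44 and 0.53 in empty vector. It gave -1.55 ± 0.16 (adjusted p = 0.00033), and -0.80 against IDH1mut (adjusted p = 0.0054). Myl10, a myosin light chain, gave -2.15 ± 0.28 (adjusted p = 0.0024) and -1.42 against IDH1mut (adjusted p = 0.0056). Trim47, a ubiquitin ligase of the tripartite motif family, overlapped R-2HG and gave -1.23 ± 0.25 (adjusted p = 0.035), a call lost without IDH1wt replicate 2 or 3 or empty vector replicate 2 or 3 (adjusted p up to 0.15).

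**Figure D3:**
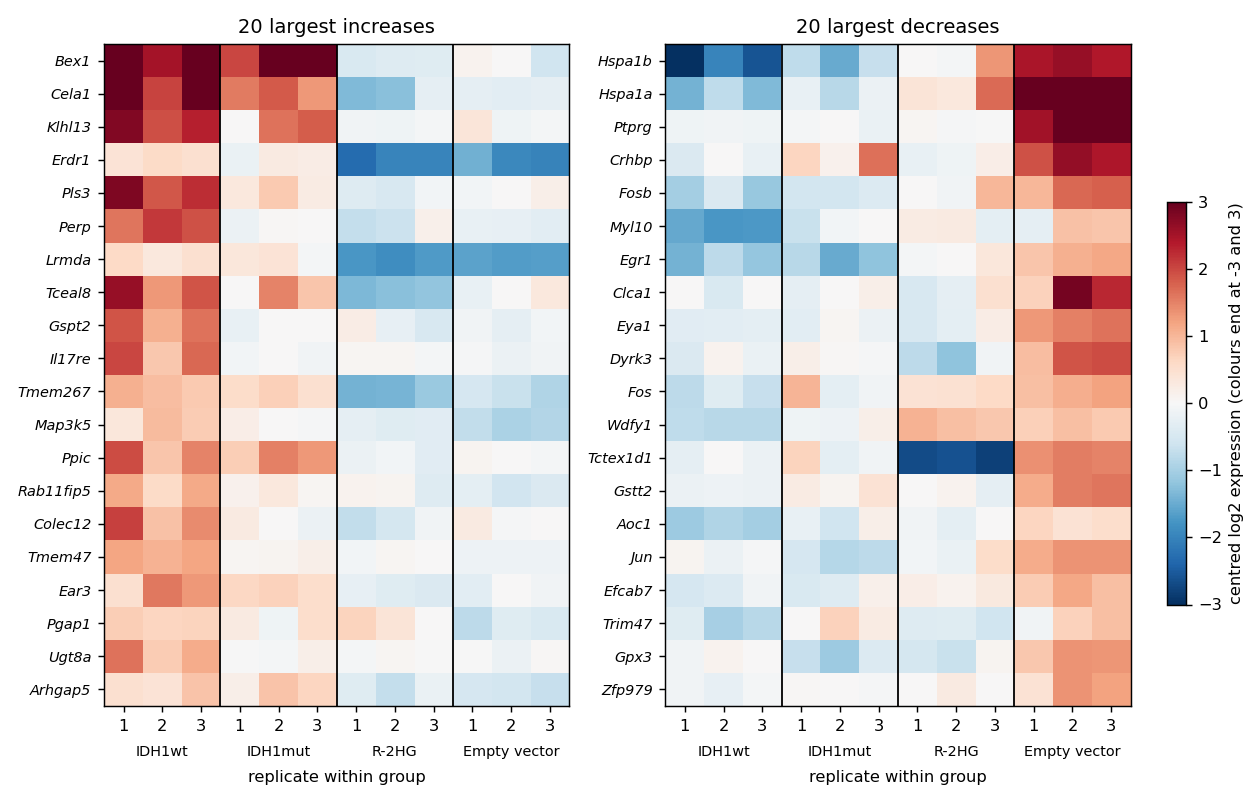
Centred log2 expression (colour, ending at -3 and 3) is shown for the 20 largest called increases (left) and the 20 largest called decreases (right) in each of the 12 arrays, grouped as IDH1wt, IDH1mut, R-2HG and empty vector. Perp, Gspt2, Il17re, Tmem47 and Ugt8a are raised in the IDH1wt columns alone, Bex1 and Lrmda in both construct groups, and Ptprg, Eya1 and Gstt2 are high in the empty vector columns alone.

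Among 30 measured genes of isocitrate and 2-oxoglutarate metabolism, the reactions nearest to IDH1, 0 were called by limma, where 1.35% of all genes were, and 3 had an unadjusted p under 0.05 (10%, against 16.2% of all genes), with differences from -0.44 to 0.24. Idh2, the mitochondrial counterpart, gave -0.13 (adjusted p = 0.48), D2hgdh, which oxidises D-2-hydroxyglutarate, 0.09 (adjusted p = 0.69), the branched-chain transaminase Bcat2 -0.44 (adjusted p = 0.13) and the aspartate transaminase Got2 0.18 (adjusted p = 0.16). Of 31 measured 2-oxoglutarate dioxygenases and DNA methyltransferases 0 were called and 5 had an unadjusted p under 0.05 (16.1%). The largest difference there was in Tet3, at -0.56 (adjusted p = 0.13, 95% interval -0.93 to -0.18). Tet2 gave 0.23 (adjusted p = 0.27) and the collagen lysyl hydroxylase Plod1 -0.32 (adjusted p = 0.12).

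Of 27 measured NADPH and glutathione genes 2 were called lower (7.41%, against 0.561% of all genes) and 0 higher. Nnt, the mitochondrial transhydrogenase that makes NADPH from NADH, measured -0.08, -0.16 and -0.05 in IDH1wt, -0.11, -0.32 and 0.11 in IDH1mut, 0.52, 0.55 and 0.43 in R-2HG, and 0.50, 0.61 and 0.58 in empty vector. The arrays of both constructs lay below all arrays of vector cells, and IDH1wt minus empty vector was -0.66 ± 0.10 (limma adjusted p = 0.0056). Of its 3 probe sets 2 gave -1.03 and -1.18, and the other gave 0.23 (adjusted p = 0.36). The C57BL/6J substrain is known to carry a deletion in Nnt that other C57BL/6 substrains lack. The labels name the strain alike for all groups, and the substrain was not tested.

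Gpx3, the secreted glutathione peroxidase, measured -0.11, 0.10 and 0.00 in IDH1wt, -0.68, -1.09 and -0.40 in IDH1mut, and 0.80, 1.34 and 1.32 in empty vector. IDH1wt was 1.16 ± 0.21 below empty vector (limma adjusted p = 0.020) and 0.72 above IDH1mut (adjusted p = 0.038). The call against empty vector was lost without any array other than empty vector replicate 1 (adjusted p up to 0.10). The rest of the list was near 0: the NRF2 factor gene Nfe2l2 gave 0.01, glutathione reductase Gsr -0.01, the malic enzyme Me1 0.05 and the pentose phosphate enzyme Pgd 0.05, all with adjusted p of 0.81 or more.

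Other metabolic lists gave 1 call or 0 each, where 1.35% of all genes were called. Elovl6, a fatty acid elongase, was the 1 called gene of 29 in cholesterol and fatty acid synthesis (0.47 ± 0.10, limma adjusted p = 0.038), Vegfa the 1 of 28 in glycolysis and hypoxia targets (-0.49 ± 0.08, adjusted p = 0.015) and Psph, the last enzyme of serine synthesis, the 1 of 29 in the ATF4 and ER stress list (-0.44 ± 0.09, adjusted p = 0.041). The glycolysis entry Gpi1 was matched through a synonym to Pigq, so that 1 of those 28 genes is not the one listed. Of the probe sets of Elovl6 1 of 3, and of those of Vegfa 1 of 2, was called alone. Elovl6 lost its call whichever array was left out (adjusted p up to 0.13), Psph without 5 of the 6 arrays (adjusted p up to 0.16) and Vegfa without 3 (adjusted p up to 0.087). Of the ATF4 and ER stress genes 9 had an unadjusted p under 0.05 (31%, against 16.2% of all genes), and in 10 the IDH1wt arrays lay wholly below the empty vector arrays, as in 13.6% of all genes. The count of genes with an unadjusted p under 0.05 was 7 (24.1%) in cholesterol and fatty acid synthesis and 3 (10.7%) in glycolysis and hypoxia targets. In 8 of the 29 cholesterol and fatty acid genes the IDH1wt arrays lay wholly above the empty vector arrays, and in 2 wholly below. The 32 measured genes of the respiratory chain and ATP synthase gave 0 calls and 6 unadjusted p under 0.05 (18.8%), with a median of -0.06. In 2 of these 32 the IDH1wt arrays lay wholly above the empty vector arrays, and in 9 wholly below. The complex I subunits Ndufb3 and Ndufv2 gave -0.20 (adjusted p = 0.17) and -0.21 (adjusted p = 0.19). The 34 of MYC and ribosome biogenesis gave 0 calls and 2 unadjusted p under 0.05 (5.88%), with a median of 0.01, and nucleolin (Ncl) gave 0.27 (adjusted p = 0.22) and the RNA polymerase I subunit Polr1b -0.19 (adjusted p = 0.27).

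The DNA replication list (40 genes) and the mitosis list (34 genes) each gave 0 calls by limma, where 1.35% of all genes were called, with 3 (7.5%) and 2 (5.88%) unadjusted p under 0.05, against 16.2% of all genes. They had medians of 0.03 and -0.05, and differences no larger than 0.51 (Ccnd2) and -0.25 (Cenpf). Lowest in p were the replication factors Orc1 (0.26, adjusted p = 0.22) and Gins3 (-0.17, adjusted p = 0.26), the kinesin Kif2c (-0.24, adjusted p = 0.14) and the ubiquitin-conjugating enzyme Ube2c (-0.22, adjusted p = 0.27). Of 28 p53 targets and CDK inhibitors 3 were called (10.7%, against 1.35% of all genes) and 11 had an unadjusted p under 0.05 (39.3%, against 16.2%). The 3 were 2 called higher, Perp and Trp53inp1 (0.34 ± 0.07, adjusted p = 0.032), and 1 lower, the CDK4 and CDK6 inhibitor Cdkn2c (-0.49 ± 0.10, adjusted p = 0.038). Neither of the 2 probe sets of Trp53inp1 was called alone. The Trp53inp1 call was lost whichever array was left out (adjusted p up to 0.13), and the Cdkn2c call without 5 of the 6 arrays (adjusted p up to 0.16). Of the 3, Perp alone kept its call with each array left out, while the p53 targets Cdkn1a (-0.25, adjusted p = 0.24), Mdm2 (-0.06, adjusted p = 0.70) and Bbc3 (-0.13, adjusted p = 0.61) were not called.

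Cdkn2a, whose products INK4A and ARF restrain the cycle, measured 0.31, 0.02 and -0.05 in IDH1wt, -1.54, -1.60 and -1.50 in IDH1mut, and 0.26, 1.22 and 1.01 in empty vector. IDH1wt overlapped empty vector replicate 1, and the difference of -0.74 missed the threshold (limma adjusted p = 0.10, 95% interval -1.19 to -0.29), whereas IDH1wt exceeded IDH1mut by 1.64 (adjusted p = 0.00045).

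Among 17 measured Hox genes and cofactors Hoxa5 was the 1 called gene (5.88%, against 1.35% of all genes). It measured -0.08, -0.18 and -0.13 in IDH1wt, against 0.50, 0.46 and 0.82 in empty vector (-0.72 ± 0.11, limma adjusted p = 0.0073), with the empty vector arrays above all 9 others. Of its 2 probe sets 1 gave -1.21 (adjusted p = 0.0014) and the other -0.23 (adjusted p = 0.29), so the averaged value rests mostly on the first. Hoxa9 measured 0.36, 0.30 and 0.23 in IDH1wt, against 0.05, -0.05 and 0.00 in empty vector, and the IDH1wt arrays were above all 9 others. Whether its probe sets read the HoxA9 that immortalised the cells, their own Hoxa9 gene or both is not given in the sources used here. The Hoxa9 difference of 0.30 missed the threshold against empty vector (adjusted p = 0.10) and passed it against IDH1mut (0.54, adjusted p = 0.0013). Meis1, a cofactor of Hoxa9, gave -0.26 against empty vector (adjusted p = 0.46) and -1.02 against IDH1mut (adjusted p = 0.0017). Of 26 stem and progenitor genes 0 were called and 3 had an unadjusted p under 0.05 (11.5%), Hlf giving -0.80 (adjusted p = 0.21) and Mycn 0.19 (adjusted p = 0.25).

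H1f4, a linker histone, was called lower at -0.93 ± 0.12 (limma adjusted p = 0.0024). It measured -0.11, 0.18 and -0.27 in IDH1wt, against 0.81, 0.90 and 0.90 in empty vector. Only 4 of the 28 listed replication-dependent histone genes were measured, and the other 3 gave -0.45, -0.32 and -0.05.

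**Figure D4:**
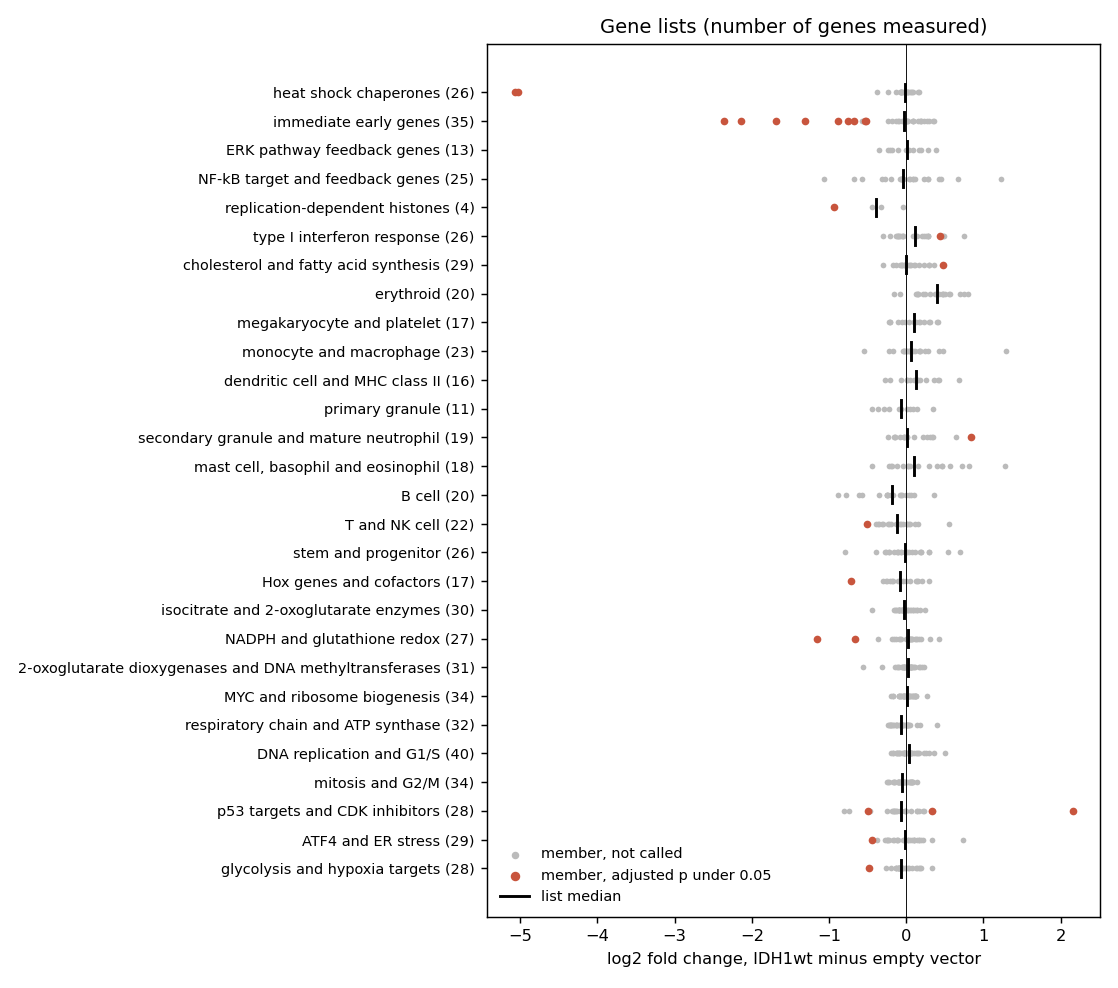
Each row is 1 of 28 gene lists with its number of measured genes, each point a gene's log2 fold change in IDH1wt relative to empty vector (x axis), red where called, and each bar the list's median. List medians lie between -0.39 (replication-dependent histones) and 0.40 (erythroid), and calls outside the heat shock and immediate early lists number at most 3 in a list.

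Marker lists of blood cell types were compared array by array, since a sorted population can hold several lineages. In these bulk samples fewer cells of a type and less RNA per cell cannot be told apart. Of the 10 lists, 8 gave 0 called genes, where 1.35% of all genes were called and 16.2% had an unadjusted p under 0.05. The exceptions were Olfm4 among 19 secondary granule and mature neutrophil genes and Trat1 among 22 T and NK cell genes.

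Olfm4, a granule protein of maturing neutrophils, measured -0.61, 0.00 and -0.27 in IDH1wt, 0.91, 1.26 and 0.98 in IDH1mut, 2.63, 2.56 and 2.03 in R-2HG, and -1.01, -1.19 and -1.19 in empty vector. The 4 groups did not overlap, and IDH1wt was 0.83 ± 0.18 above empty vector (limma adjusted p = 0.041) and 1.34 below IDH1mut (adjusted p = 0.00054). The call against empty vector was lost without 5 of the 6 arrays (adjusted p up to 0.16). In this list 8 of 19 genes had an unadjusted p under 0.05 (42.1%, against 16.2% of all genes). The arrays did not overlap in 5 higher and 4 lower genes of the 19, as in 10.2% and 13.6% of all genes. The neutrophil collagenase Mmp8 gave 0.64 (adjusted p = 0.083), the gelatinase Mmp9 0.33 (adjusted p = 0.11) and the formyl peptide receptor Fpr2 0.35 (adjusted p = 0.14), whereas the granule proteins Ltf gave 0.11, Camp -0.16, Ngp -0.03 and Lcn2 -0.02, and the alarmin subunit S100a8 0.00. The list's median centred value was -0.13, -0.12 and -0.10 in IDH1wt, against -0.14, -0.21 and -0.24 in empty vector.

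Primary granule genes, which mark promyelocytes, had list medians of 0.17, 0.11 and 0.19 in IDH1wt, against 0.16, 0.32 and 0.26 in empty vector. Of 11 measured 0 were called by limma and 4 had an unadjusted p under 0.05. The 11 include Jchain, the immunoglobulin joining chain, which is not a granule gene, and Nkg7, which is also in the T and NK list. Myeloperoxidase (Mpo) gave 0.05, proteinase 3 (Prtn3) -0.07, neutrophil elastase (Elane) -0.29, the repressor Gfi1 -0.44 (adjusted p = 0.11) and Ms4a3 -0.37 (adjusted p = 0.14). Monocyte and macrophage genes (23 measured, 0 called, 6 with an unadjusted p under 0.05) had medians of 0.12, 0.18 and 0.08 in IDH1wt, against 0.00, -0.01 and 0.00 in empty vector. In 8 of the 23 the IDH1wt arrays lay wholly above the empty vector arrays, and in 1 wholly below. The scavenger receptor Cd36 gave 1.30 (adjusted p = 0.12) and Ms4a7 0.47 (adjusted p = 0.12).

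The erythroid list had the largest median difference of the 28 lists above 0, without a call. Its 20 measured genes gave 18 differences above 0 and a median of 0.40, against -0.04 for all genes, yet the smallest adjusted p was 0.30 (limma) and 1 gene had an unadjusted p under 0.05. The list median was -0.77, 0.24 and -0.14 in IDH1wt, against -0.66, -0.62 and -0.69 in empty vector, so that IDH1wt replicate 1 lay with the empty vector arrays and replicates 2 and 3 above them. Alas2, the first enzyme of haem synthesis in red cells, measured -0.60, 0.49 and 0.14 in IDH1wt, against -0.42, -1.17 and -0.64 in empty vector. The erythropoietin receptor Epor gave 0.37 (adjusted p = 0.35). Mast cell, basophil and eosinophil genes (18 measured, 0 called, 3 with an unadjusted p under 0.05) had medians of 0.01, 0.43 and 0.33 in IDH1wt, against 0.05, 0.02 and 0.00 in empty vector, again with replicate 1 at the empty vector level. The cytokine gene Il4 gave 0.56 (limma adjusted p = 0.16) and the chymase Cma1 0.46 (adjusted p = 0.17).

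B cell genes ran unevenly within both groups: the list median was -0.30, 0.58 and 0.18 in IDH1wt, against 1.06, 0.00 and 0.00 in empty vector. Of 20 measured 0 were called and 1 had an unadjusted p under 0.05 (Bank1, 0.36, limma adjusted p = 0.15), and Vpreb1, a surrogate light chain of pre-B cells, spread from -1.20 to 0.20 within IDH1wt and from 0.00 to 1.04 within empty vector. In the T and NK list Trat1, an adaptor of the T cell receptor, was called lower at -0.51 ± 0.08 (adjusted p = 0.012), a call lost without IDH1wt replicate 2 or 3 or empty vector replicate 3 (adjusted p up to 0.069), while Cd3e gave -0.20 and Cd4 0.01. Of the 2 probe sets of Trat1 1 was called alone, and 5 of the 22 genes of the list had an unadjusted p under 0.05 (22.7%). Megakaryocyte and platelet genes (17 measured, 0 called, 2 with an unadjusted p under 0.05) had a median difference of 0.11, with Plek, the platelet protein pleckstrin, at 0.41 (adjusted p = 0.12) and the factor Fli1 at -0.22 (adjusted p = 0.21), and dendritic cell and MHC class II genes (16 measured, 0 called, 0 with an unadjusted p under 0.05) 0.13, with Itgax at 0.69 (adjusted p = 0.37) and H2-DMa at -0.28 (adjusted p = 0.43). The part of these lineage differences in the calls above was not tested.

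**Figure D5:**
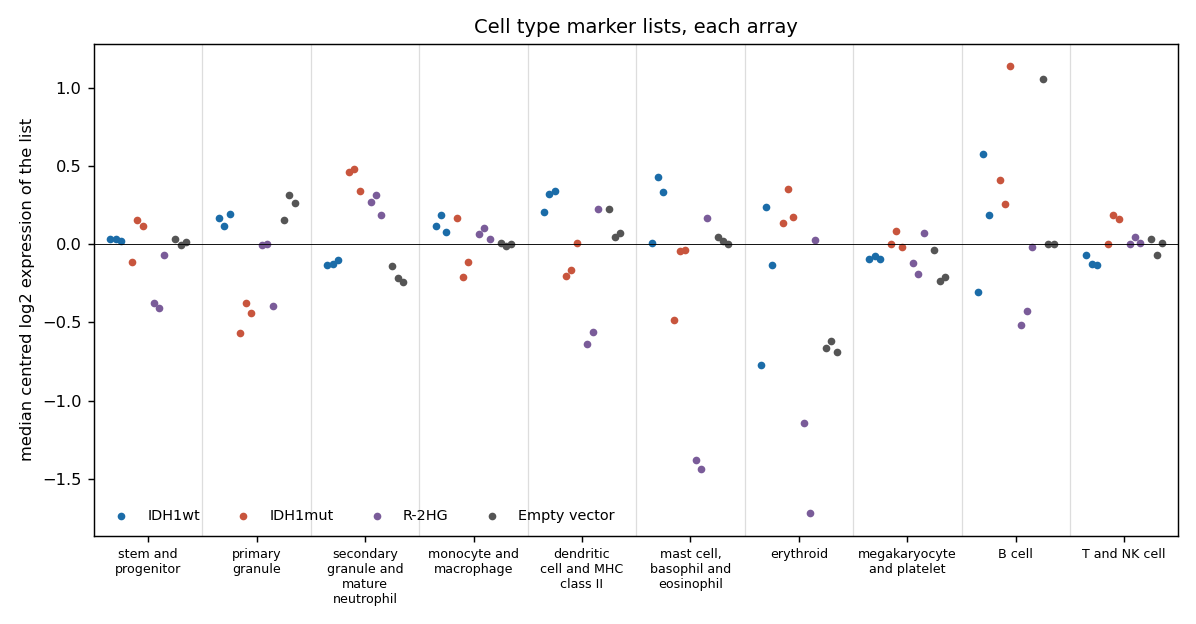
The median centred log2 expression (y axis) of each of 10 blood cell marker lists is shown for every array (points) of the 4 groups. The erythroid list splits IDH1wt replicate 1, at -0.77, from replicates 2 and 3, at 0.24 and -0.14, while the 3 empty vector arrays lie between -0.69 and -0.62.

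Interferon response genes gave 1 call, higher in IDH1wt, among 26 (3.85%, against 0.788% of all genes), a share that rests on 1 gene. Of the 26, 6 had an unadjusted p under 0.05 (23.1%, against 16.2%). In 8 of the 26 the IDH1wt arrays lay wholly above the empty vector arrays, and in 4 wholly below. Over all genes these shares were 10.2% and 13.6%. Ifit2 measured 0.25, 0.11 and 0.13 in IDH1wt, against -0.22, -0.26 and -0.32 in empty vector, with the empty vector arrays below all 9 others (0.43 ± 0.07, limma adjusted p = 0.0086). Its relatives Ifit3 (0.74, adjusted p = 0.078) and Ifit1 (0.46, adjusted p = 0.31), the GTPase Mx1 (0.49, adjusted p = 0.11) and Rsad2 (0.48, adjusted p = 0.080) did not pass. The list's median was 0.11. The Ifit2 call was lost without empty vector replicate 3 (adjusted p = 0.058).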

How the data were processed

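Gene expression was measured on 12 Affymetrix arrays with biotin-labelled RNA of sorted mouse marrow cells, in 4 groups of 3 taken from the titles. The deposited log2 values were made by the authors with RMA, per the submitters' processing notes, which name no version. As deposited they are centred per probe set (32533 probe sets, -6.48 to 4.93, every array median 0, an exact 0 in 83.6% of probe sets), and the centring step is not given in the sources used here. The number of arrays limits the precision, and signal over background cannot be read from centred values.

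From these values, 28805 probe sets with 1 symbol in the platform annotation were averaged per gene (757 with several symbols and 2971 with none were left out), giving 15858 genes, 8510 of them with 1 probe set. The model, run in limma 3.58.1 under R 4.3.3 with lmFit and eBayes, had 1 coefficient per group over 12 arrays (8 residual and 3.96 prior degrees of freedom). Its two-sided p-values were adjusted by Benjamini-Hochberg over all genes, with a threshold of 0.05. An exact permutation test of 3 against 3 arrays cannot give a p below 0.1 and was not used. The fit was tested on simulated data. Chromosomes came from RefSeq's table of GRCm38.p6, which held 28674 of the probe sets' Entrez identifiers, and promoters from its windows.

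Genes named are the 20 largest called changes in each direction whose arrays do not overlap (predicted and clone names left out), every called member of 28 gene lists (680 of 774 entries measured), the 2 smallest p of each list without a call, and 8 genes tied to IDH1 and HoxA9. Other list members and genes in the text were chosen after their values were seen. The members and lists were chosen with earlier results of these data known.

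Replicate numbers are shared between groups. The deviations of same-numbered arrays from their group means correlated at -0.1, -0.01 and -0.01, so the numbers were not taken to pair the arrays. Alternatives were fits of 6 and 9 arrays, a further quantile normalization, other gene values, eBayes with trend or robust, array weights, an SD filter at the 30th percentile (a filter on level is not possible on centred values), a minimum of 1.5-fold, a replicate block and each array left out. Counts of list members under these settings were added after seeing the data. Figures were drawn with matplotlib 3.10.9.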

Additional observations from a re-analysis of the deposited data

How the results depend on the processing

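The count of called genes moved with the processing. Against 214 genes (125 higher, 89 lower), a further quantile normalization gave 521 (355 higher, 166 lower), the probe set with the highest SD 382 (251 higher), genes with 1 probe set 111 (64 higher, 47 lower), array weights 1388 (616 higher, 772 lower), single probe sets 483 (312 higher, 173 lower) and a minimum of 1.5-fold 119 (72 higher, 47 lower). The quantile-normalized fit called 213 of the 214 genes and the weighted fit all 214. The cause of these moves was not tested, except that the genes with 1 probe set and the fold minimum leave fewer genes to call. Leaving out 1 array gave 84 to 214 calls (46 to 122 higher, 38 to 94 lower), lowest without empty vector replicate 3. The replicate block, although the numbers did not pair the arrays, gave 147 calls (83 higher) in 12 arrays and 88 (54 higher, 34 lower) in 6 arrays. The other fits gave 218 to 283 calls. The genes changed more than some of these counts. Of the 214, the fit of 6 arrays called 162, that of 9 arrays 171 and the probe set with the highest SD 187. Without IDH1wt replicate 1 the count was again 214, but only 147 of the original 214 were among them. With another of the 6 arrays left out, 81 to 140 of the 214 were kept, and with the replicate block 139 (12 arrays) and 67 (6 arrays).

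Of the 56 called genes named by rule, 28 kept their call under every alternative, and 36 did so with each of the 6 arrays left out. Over 1036 alternative values, 896 kept direction and call, 139 kept direction alone and 1 reversed: a single probe set of Nnt, at 0.23. Among 40 named genes without a call, values reversed for Got2 (-0.073, as the probe set with the highest SD and as a single probe set), Nfkbiz (0.066 in 1 probe set) and Spred1 (-0.076 and -0.17 in 2 probe sets), and 31 of 749 values passed the threshold. Immediate early genes called lower numbered 6 to 10 across alternatives (6 with the replicate block in 6 arrays), with 3 members called higher under array weights, and heat shock genes called lower 2 to 4.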

Other observations

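Most called genes, 190 of 214, belonged to none of the gene lists. Some of those with a known role are given here, chosen after their values were seen. Keap1, the adaptor that marks NRF2 for degradation, was lower in IDH1wt (-0.42), as were Ppargc1a, a coactivator of mitochondrial genes (-0.60), the DNA repair enzyme Mgmt (-0.46), the cytokine gene Osm (-0.57) and Tfpi, the inhibitor of the tissue factor pathway (-1.01). Higher were Acss2, which makes acetyl-CoA from acetate (0.70), the coagulation factor gene F5 (0.84), the iron regulator Hfe (0.42), the phagosomal metal transporter Slc11a1 (0.65), and Acod1, which makes itaconate from the citrate cycle intermediate aconitate (0.91). Each was called by limma at the threshold given above.

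Several called genes related to the interferon response lay outside the interferon list. Ifit1bl1 gave 0.65, its neighbour Ifit1bl2 0.57, Ifi213 0.64, the nucleotide hydrolase Samhd1 0.53 and Slfn4 0.84, and in all 5 the empty vector arrays lay below all 9 others. They were picked from the called genes, so their common direction is not evidence about the pathway, and 1 of the 26 measured members of the list itself was called.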
